A study of Mus musculus with 12 samples.

Results

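Expression of 10 genes of the major histocompatibility complex (MHC) class I antigen presentation pathway was examined by RNA-Seq in mouse embryonic fibroblasts (MEFs). The genes were picked by name for their place in the pathway: H2-K1, H2-D1, B2m, Tap1, Tap2, Tapbp, Psmb8, Psmb9, Nlrc5 and Erap1. They are 10 of the 24421 genes in the table of counts, and 10 of 10 were among the 15220 genes that passed the filter on low counts. The study asked how cells without the transcription factors TFEB and TFE3 respond to DNA damage. The 12 libraries form 4 groups of 3: control Null MEFs, control TFEB/TFE3 DKO MEFs, and both lines after 8 hr with 100 µM etoposide, a topoisomerase II poison that leaves double-strand breaks in DNA. Null is the name that the labels give to the control line with TFEB and TFE3 intact, which was taken as the wild-type line of the study's methods. The double knockout (DKO) line was made by CRISPR-Cas9, the MEFs of the study were immortalised with SV40, and the strain is not given in the sources used here. Each genotype is 1 line, so that a difference between the lines other than the knockout cannot be told apart from the genotype, and p-values measure the spread between these libraries, which may be technical. The methods give DMSO as the control treatment of these cells, while the labels call the controls untreated. The smallest library held 45577023 counts on genes and the largest 104120871. Levels are CPM after TMM scaling.

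MHC class I molecules show short peptides from the cell's own proteins to CD8+ T cells. Proteasomes cut proteins to peptides, the TAP transporter carries these into the endoplasmic reticulum, an aminopeptidase trims them there, and a loading complex places them on a heavy chain bound to beta 2-microglobulin. Fibroblasts make low to moderate amounts of these proteins at rest and more of them when interferon acts on the cells. IRF1 is among the factors that act downstream of interferon, and the coactivator NLRC5 joins factors already bound at class I promoters.

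The targeted genes were checked first. Tfeb stood at 38.9, 39.2 and 42.1 CPM in the control Null libraries, 4.60, 6.09 and 4.68 CPM in the control DKO libraries, 11.4, 10.2 and 10.4 CPM in the Null libraries after etoposide and 1.92, 1.61 and 2.20 CPM in the DKO libraries after etoposide. Every DKO library was below every Null library of the same treatment, and counts of Tfeb were still 279 to 560 in the control DKO libraries. Tfeb was 7.75-fold lower in DKO than in Null MEFs without etoposide (log2 fold change -2.95, SE 0.10, edgeR adjusted p = 1.76e-13) and 5.52-fold lower after it (log2 fold change -2.46, SE 0.12, edgeR adjusted p = 9.94e-12). Tfe3 stood at 115, 109.9 and 114 CPM in the control Null libraries, 94.1, 93.0 and 91.0 CPM in the control DKO libraries, 68.5, 69.6 and 68.1 CPM in the Null libraries after etoposide and 70.7, 71.2 and 63.4 CPM in the DKO libraries after etoposide. Its transcript was lower in control DKO MEFs by a smaller step (log2 fold change -0.29, SE 0.041, edgeR adjusted p = 1.06e-05), and the ranges of the DKO and Null libraries overlapped after etoposide (log2 fold change -0.0072, SE 0.042, edgeR adjusted p = 0.887). Total counts of a gene do not show whether an edited transcript still encodes protein.

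The fibroblast markers Vim, Fn1, Col1a1 and Col1a2 were abundant in every library, with the lowest value of the 4 at 518 CPM (Col1a2), while Thy1, another of the 10 fibroblast markers, was near 0 in DKO libraries. The summed level of the 10 was 7211 CPM in control Null MEFs, 11875 CPM in control DKO MEFs, 3875 CPM in Null MEFs after etoposide and 5164 CPM in DKO MEFs after etoposide. Leukocytes carry the highest class I levels of the body. Of 10 leukocyte markers, Ptprc reached at most 0.540 CPM, Cd3e had 0 counts in 3 of the 4 groups, and Nkg7 had 0 counts in all 12 libraries. The 10 leukocyte markers summed to 1.73 to 15.1 CPM per library, most of it from Cd68, a lysosomal glycoprotein that cells other than leukocytes also express. Without Cd68 the sum reached at most 2.65 CPM, in a treated Null library. With etoposide in Null MEFs, 6 of the 6 tested were called higher, against 41.7% of all genes tested.

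Most of the 10 genes changed in each comparison between groups, as did most genes of the transcriptome. Etoposide raised 7 and lowered 1 of the 10 genes in Null MEFs, against 41.7% of the 15220 genes tested called higher and 36.8% called lower at an edgeR adjusted p under 0.05. In DKO MEFs it raised 6 and lowered 2, against 44.0% higher and 31.3% lower over all genes. Without etoposide, 3 were higher and 6 lower in DKO than in Null MEFs, against 33.4% higher and 34.1% lower over all genes. After etoposide, 2 were higher and 7 lower in DKO MEFs, against 36.9% higher and 35.2% lower. The response to etoposide differed between the lines for 6 genes (interaction), more positive in DKO MEFs for 2 and more negative for 4, against 29.9% and 24.7% of all genes. The median log2 fold change over the 10 genes was 0.37 with etoposide in Null MEFs (0.067 over all genes tested), 0.49 in DKO MEFs (0.14), -0.26 for DKO against Null MEFs in controls (-0.022), -0.56 after etoposide (-0.0039) and -0.033 for the interaction (0.049). Comparisons that share a group share its libraries. Make-up of the libraries moved with the groups as well: pairs outside features made up 22.5 to 24.2% in control Null, 20.2 to 21.1% in control DKO, 25.1 to 27.3% in treated Null and 21.2 to 22.3% in treated DKO libraries. TMM factors were 0.962 to 0.969, 0.884 to 0.893, 1.08 to 1.09 and 1.07 to 1.08 in the same order, and the part of either in the changes of the 10 genes was not tested. With so many genes called, sizes tell the 10 genes apart better than calls, and sizes ran from 2.47 for Tap1 with etoposide in Null MEFs to -2.15 for Nlrc5 in DKO against Null MEFs after etoposide.

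**Figure D1:**
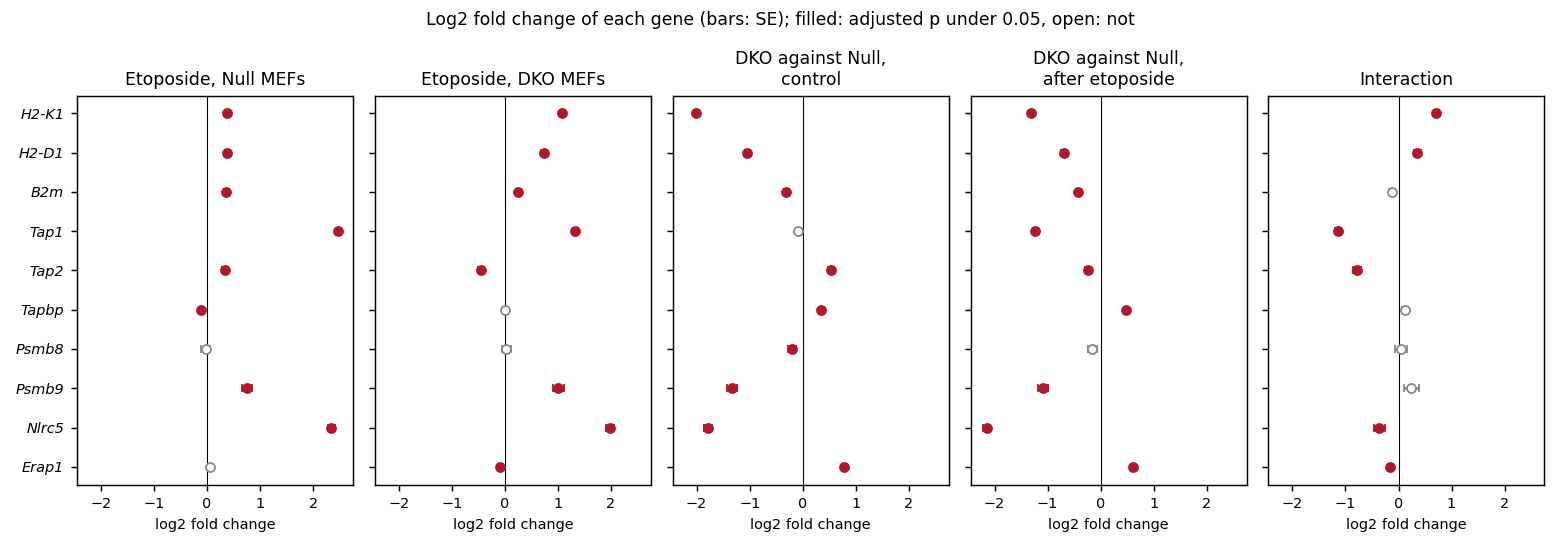
Log2 fold change (x axis) of each of the 10 genes (y axis) in the 5 comparisons, with bars for the SE from edgeR, filled where the adjusted p was under 0.05 and open where it was not. Tap1 and Nlrc5 lie farthest to the right with etoposide in Null MEFs, at 2.47 and 2.34, and H2-K1 farthest to the left in control DKO against Null MEFs, at -2.02.

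Start regions of 8 of the 10 genes were matched in RefSeq (GRCm38.p6), each 250 bases before to 50 bases after the start; Nlrc5 and Tap2 were not matched. Class I promoters are known to carry a module of boxes on which RFX, CREB or ATF and NF-Y factors sit and to which NLRC5 is recruited. The core of the X2 box (TGACG) and the Y box (ATTGG, the inverted CCAAT) lay 20 bases apart in the same direction in H2-K1, H2-D1 and B2m, the heavy chains and the light chain of the class I molecule. These stretches are shown 5′ to 3′ with the boxes in capitals, because the 3 genes share this spacing. The group means of these 3 genes ranked in the same order, as did those of Psmb9, which has no such pair. Whether the pair has a part in that order was not tested. The stretches lie upstream of the RefSeq start, at chr17:34000359-34000388 on the reverse strand for H2-K1, and at chr17:35262993-35263022 for H2-D1 and chr2:122147609-122147638 for B2m on the forward strand. GENCODE starts H2-D1 farther upstream, so that the H2-D1 stretch touches an annotated exon of that gene.
H2-K1: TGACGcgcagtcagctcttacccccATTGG
H2-D1: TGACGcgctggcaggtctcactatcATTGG
B2m: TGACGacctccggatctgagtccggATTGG

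On either strand, TGACG followed by ATTGG at 15 to 25 bases was found in 143 of the 32851 start regions in the table (0.435%) and in 3 of the 8 here. That range was set after the 3 promoters had been seen. Alone, TGACG was in 20.8% of all start regions and in 5 of the 8, H2-K1, H2-D1, B2m, Tap1 and Psmb9. ATTGG was in 37.4% of all and in 6 of the 8, the same 5 and Tapbp. The κB core GGGATTCCC, a binding motif of NF-κB, was in 0.353% of all start regions and here in H2-K1 and H2-D1. A core of the interferon-stimulated response element, GAAANNGAAA, was in 3.44% of all and here in B2m and Erap1. The longer stretches of H2-K1 (chr17:34000354-34000462, reverse strand) and B2m (chr2:122147543-122147643, forward strand) show how these elements follow each other, with the κB core of H2-K1, the interferon element of B2m and the boxes of both in capitals.
H2-K1, longer stretch: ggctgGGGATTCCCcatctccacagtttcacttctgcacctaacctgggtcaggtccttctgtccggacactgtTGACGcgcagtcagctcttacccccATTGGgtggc
B2m, longer stretch: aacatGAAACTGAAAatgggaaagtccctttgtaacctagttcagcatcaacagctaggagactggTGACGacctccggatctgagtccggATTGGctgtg

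The stretch of H2-D1 that corresponds to the longer one of H2-K1 was identical to it at 98 of 109 positions (89.9%). TFEB and TFE3 bind E-box elements with the core CACGTG, which was in 7.15% of all start regions and, of the 8, only in that of Erap1, shown with the core in capitals (chr13:74639811-74639840, forward strand). This stretch too touches a GENCODE exon of Erap1.
Erap1: caccctcagcccCACGTGccctgccggtcc
A match describes the letters in these windows and is no measure of binding.

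**Figure D2:**
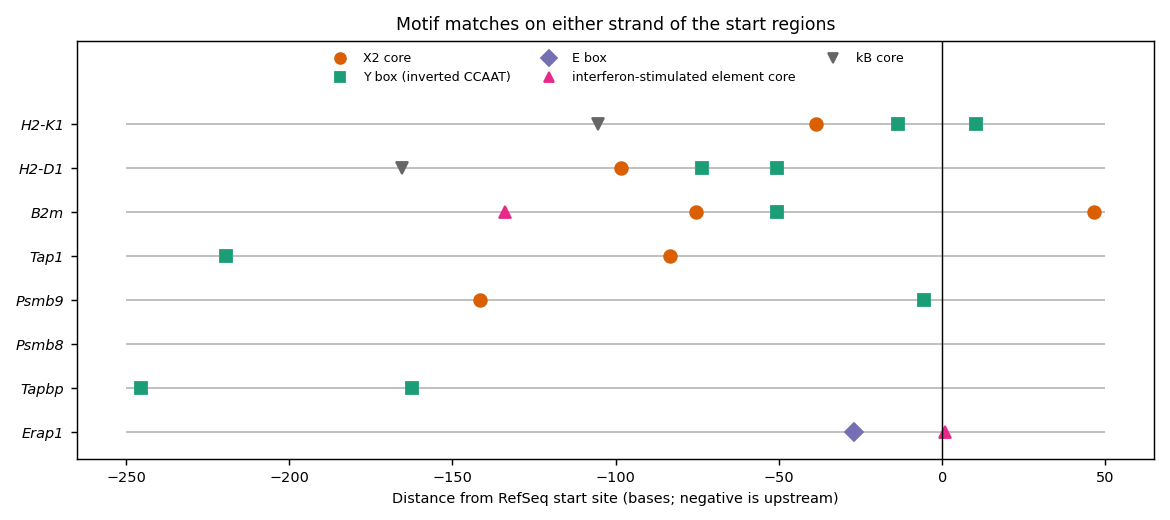
Positions of motif matches on either strand (symbols) in the start regions of 8 genes (y axis), by distance in bases from the RefSeq start (x axis, negative upstream); 1 region is drawn for H2-K1, which has 2 listed starts. H2-K1, H2-D1 and B2m each show an X2 core with a Y box downstream of it at the same spacing.

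H2-K1 (GRCm38, chr17:33996017-34000347, reverse strand) encodes a classical heavy chain, the chain that holds the peptide. It stood at 686, 656 and 675 CPM in the control Null libraries, 165, 167 and 167 CPM in the control DKO libraries, 855, 855 and 908 CPM in the Null libraries after etoposide and 342, 354 and 360.2 CPM in the DKO libraries after etoposide. The 4 groups did not overlap: control DKO libraries were lowest, followed by DKO libraries after etoposide, control Null libraries and Null libraries after etoposide. Control DKO MEFs held 4.05-fold less H2-K1 than control Null MEFs (log2 fold change -2.02, SE 0.034, edgeR adjusted p = 2.01e-17), the largest fold between the lines without etoposide among the 10 genes. Etoposide raised it 1.30-fold in Null MEFs (log2 fold change 0.38, SE 0.033, edgeR adjusted p = 1.45e-08) and 2.12-fold in DKO MEFs (log2 fold change 1.08, SE 0.033, edgeR adjusted p = 2.02e-14). The rise was larger in DKO MEFs, with an interaction of 0.71 (SE 0.046, edgeR adjusted p = 1.67e-09). After etoposide the DKO libraries were still 2.48-fold below the Null libraries (log2 fold change -1.31, SE 0.033, edgeR adjusted p = 3.37e-15). A lower level can come from fewer expressing cells or from less RNA per cell, which cannot be told apart in bulk libraries.

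H2-D1 (chr17:35262730-35267499, forward strand), another classical heavy chain, showed the same order of groups at lower levels. It stood at 208, 197 and 197 CPM in the control Null libraries, 101, 91.2 and 99.7 CPM in the control DKO libraries, 251, 259 and 274 CPM in the Null libraries after etoposide and 157, 162 and 166 CPM in the DKO libraries after etoposide. No 2 groups overlapped. The gap between the control lines was 2.07-fold (log2 fold change -1.05, SE 0.045, edgeR adjusted p = 2.51e-12). Etoposide raised H2-D1 by a log2 fold change of 0.38 in Null MEFs (SE 0.044, edgeR adjusted p = 6.85e-07) and of 0.73 in DKO MEFs (SE 0.045, edgeR adjusted p = 2.21e-10), and the interaction was 0.35 (SE 0.063, edgeR adjusted p = 1.57e-04). DKO MEFs remained lower after etoposide (log2 fold change -0.69, SE 0.045, edgeR adjusted p = 3.97e-10). Sequence shared within the family makes these counts less certain: 3.10% of the 75-base windows in annotated transcripts of H2-K1 and 5.56% of those of H2-D1 also occur in transcripts of other genes, mostly other class I genes such as H2-Q10 and H2-Q1. Class I alleles also differ between mouse strains, and how well the alleles of H2-K1 and H2-D1 in these lines match the reference was not analysed here.

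B2m (chr2:122147686-122153083, forward strand) encodes beta 2-microglobulin, the light chain that every class I heavy chain needs. It stood at 694, 670.3 and 648 CPM in the control Null libraries, 549, 519.7 and 547 CPM in the control DKO libraries, 830.2, 866 and 884 CPM in the Null libraries after etoposide and 634, 612 and 665 CPM in the DKO libraries after etoposide. DKO libraries were below Null libraries of the same treatment, the etoposide libraries of each line were above its control ones, and the ranges of treated DKO and control Null libraries overlapped. Its steps between the lines and with etoposide in DKO MEFs were smaller than those of the heavy chains. With etoposide in Null MEFs the steps were close, at a log2 fold change of 0.36 for B2m and 0.38 for H2-K1 and H2-D1. Etoposide raised B2m 1.28-fold in Null MEFs (log2 fold change 0.36, SE 0.038, edgeR adjusted p = 1.87e-07) and 1.18-fold in DKO MEFs (log2 fold change 0.24, SE 0.038, edgeR adjusted p = 2.46e-05). DKO MEFs held less of it in controls (log2 fold change -0.32, SE 0.038, edgeR adjusted p = 1.15e-06) and after etoposide (log2 fold change -0.43, SE 0.038, edgeR adjusted p = 1.97e-08). The interaction was -0.12 (SE 0.054, edgeR adjusted p = 0.0755) and missed the threshold, a result that depended on the settings. It passed with DESeq2, at -0.18 (DESeq2 adjusted p = 0.00244), RLE size factors, at -0.18 (edgeR adjusted p = 0.00881), no filter, at -0.13 (edgeR adjusted p = 0.0356), and a filter at a mean of 1 CPM, at -0.17 (edgeR adjusted p = 0.0122). The B2m interaction also passed without the first control Null library, at -0.14 (edgeR adjusted p = 0.0392), the second control DKO library, at -0.16 (edgeR adjusted p = 0.0205), the first treated Null library, at -0.14 (edgeR adjusted p = 0.0357), or the third treated DKO library, at -0.16 (edgeR adjusted p = 0.0166). In the other direction, it shrank to -0.011 (edgeR adjusted p = 0.885) with library size alone, and leaving out 1 library brought it no nearer to 0 than -0.087 (edgeR adjusted p = 0.202). Library size alone also made the rise of B2m with etoposide larger, 0.53 in Null and 0.51 in DKO MEFs.

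The balance between the chains differed between the lines. Per kb of annotated exon, H2-K1 exceeded H2-D1 by a ratio of 2.94 ± 0.0628 (SD, n = 3) in control Null MEFs and 2.93 ± 0.0483 (SD, n = 3) after etoposide. In DKO MEFs the ratio was 1.503 ± 0.0938 (SD, n = 3) in controls and 1.91 ± 0.00899 (SD, n = 3) after etoposide. The ratio in Null libraries lay above that in every DKO library, and the etoposide and control ranges overlapped in Null but not in DKO libraries. Against B2m, H2-K1 per kb stood at 0.294 ± 0.0100 (SD, n = 3) in control Null and 0.0904 ± 0.00339 (SD, n = 3) in control DKO libraries. After etoposide the ratio of H2-K1 to B2m was 0.297 ± 0.00706 (SD, n = 3) in Null and 0.162 ± 0.00656 (SD, n = 3) in DKO libraries, so that B2m exceeded H2-K1 per length in each of the 12 libraries. In CPM without length, means of H2-K1 and B2m were 672 and 671 in control Null and 873 and 860 in treated Null MEFs. The order in Null MEFs thus rests on the exon lengths, 2938 bases for H2-K1 and 860 for B2m. These ratios are descriptions and were not tested.

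**Figure D3:**
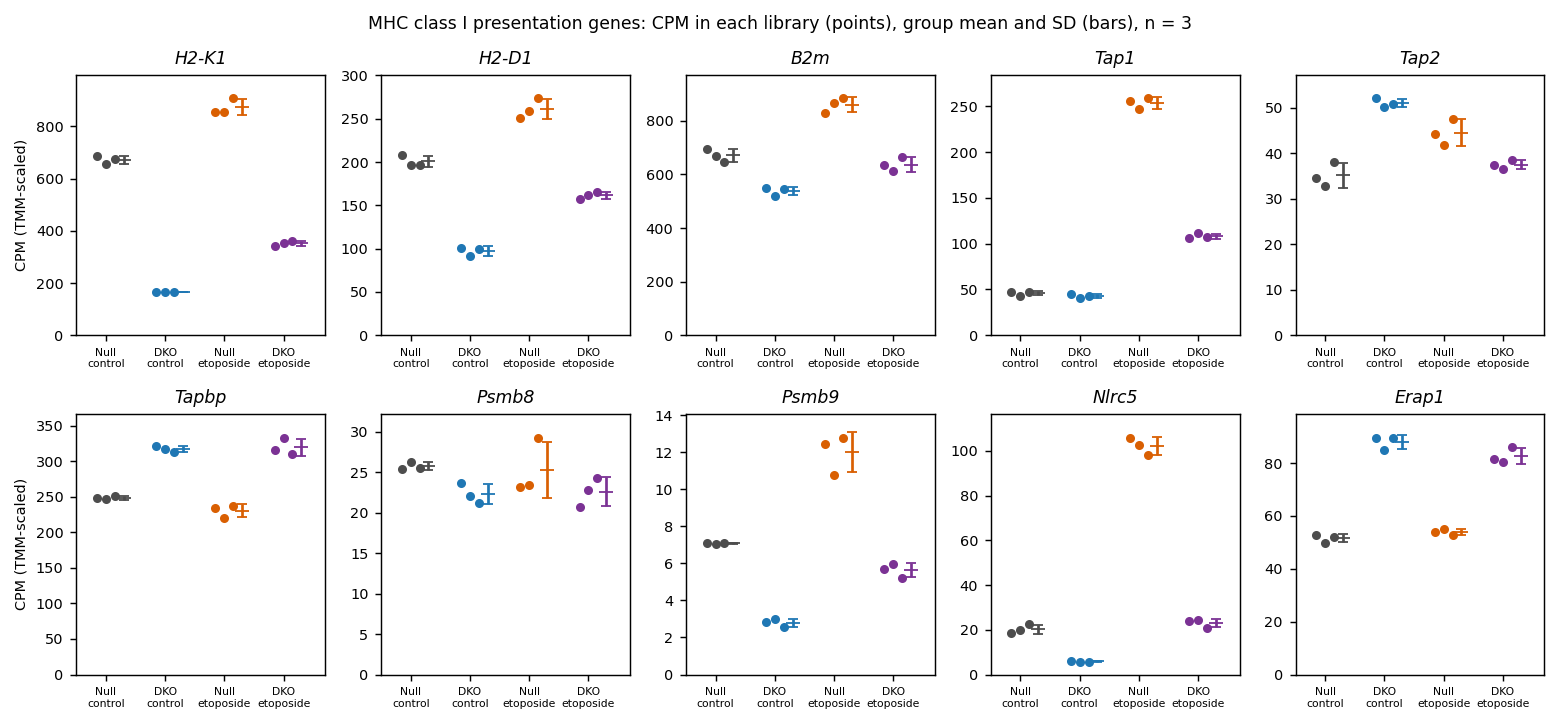
CPM after TMM scaling (y axis, from 0) of each gene in the 12 libraries (points) by group (x axis), with the group mean and SD (n = 3) beside them. H2-K1 falls from 672 CPM in control Null MEFs to 166 CPM in control DKO MEFs, and Tap1 climbs from 45.8 to 254 CPM with etoposide in Null MEFs.

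Tap1 (chr17:34187553-34197225, forward strand) and Tap2 encode the subunits of the TAP transporter, which pumps peptides into the endoplasmic reticulum. Tap1 stood at 47.5, 43.0 and 46.9 CPM in the control Null libraries, 44.9, 41.0 and 43.3 CPM in the control DKO libraries, 255, 246 and 259 CPM in the Null libraries after etoposide and 106, 111 and 107 CPM in the DKO libraries after etoposide. The control lines overlapped, every treated library was above every control one, and treated Null libraries were above treated DKO libraries. Etoposide raised Tap1 5.53-fold in Null MEFs (log2 fold change 2.47, SE 0.046, edgeR adjusted p = 4.87e-17), the largest rise among the 10 genes. In DKO MEFs the rise was 2.51-fold (log2 fold change 1.33, SE 0.045, edgeR adjusted p = 7.64e-14). The responses differed by -1.14 on the log2 scale (SE 0.063, edgeR adjusted p = 1.95e-10). DKO MEFs were 2.34-fold lower after etoposide (log2 fold change -1.23, SE 0.044, edgeR adjusted p = 2.17e-13). Without etoposide the lines differed by -0.091 (SE 0.045, edgeR adjusted p = 0.0862), which missed the threshold, and leaving out the second control Null library made it -0.13 (edgeR adjusted p = 0.0197) and leaving out the first control DKO library -0.13 (edgeR adjusted p = 0.0347). Tap1 also passed there with library size alone, at -0.21 (edgeR adjusted p = 6.25e-04), and with a filter at a mean of 1 CPM, at -0.10 (edgeR adjusted p = 0.0439).

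Tap2 (chr17:34203527-34216321, forward strand) moved in opposite directions in the lines. It stood at 34.5, 32.8 and 38.1 CPM in the control Null libraries, 52.1, 50.3 and 50.9 CPM in the control DKO libraries, 44.2, 41.8 and 47.6 CPM in the Null libraries after etoposide and 37.3, 36.6 and 38.6 CPM in the DKO libraries after etoposide. Control DKO libraries were highest and clear of the others, treated Null libraries came next, and treated DKO and control Null libraries overlapped. Etoposide raised Tap2 in Null MEFs (log2 fold change 0.34, SE 0.055, edgeR adjusted p = 2.54e-05) and lowered it in DKO MEFs (log2 fold change -0.44, SE 0.055, edgeR adjusted p = 1.54e-06). With library size alone the fall was smaller, at -0.17 (edgeR adjusted p = 0.00913). The interaction was -0.79 (SE 0.077, edgeR adjusted p = 2.23e-07). Tap2 was 1.45-fold higher in control DKO than in control Null MEFs (log2 fold change 0.54, SE 0.055, edgeR adjusted p = 1.57e-07) and 1.19-fold lower after etoposide (log2 fold change -0.25, SE 0.055, edgeR adjusted p = 6.72e-04).

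The ratio of the TAP subunits therefore shifted. Per kb of exon, Tap1 over Tap2 was 0.902 ± 0.0501 (SD, n = 3) in control Null MEFs and 0.582 ± 0.0170 (SD, n = 3) in control DKO MEFs. After etoposide it reached 3.94 ± 0.166 (SD, n = 3) in Null and 1.99 ± 0.0954 (SD, n = 3) in DKO MEFs. Per kb, Tap2 was the more abundant subunit in each control library and Tap1 in each treated one. In CPM without length, Tap1 was above Tap2 in each control Null library. The order there thus rests on the exon lengths, 5476 bases for Tap1 and 3781 for Tap2.

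Tapbp (chr17:33915899-33929292, forward strand) encodes tapasin, which bridges TAP and the empty heavy chain. It stood at 248, 246 and 252 CPM in the control Null libraries, 322, 317 and 313 CPM in the control DKO libraries, 234, 219.8 and 237 CPM in the Null libraries after etoposide and 316, 333 and 309.9 CPM in the DKO libraries after etoposide. Both DKO groups, which overlapped, were above both Null groups. Tapbp was 1.28-fold higher in control DKO MEFs (log2 fold change 0.35, SE 0.037, edgeR adjusted p = 2.32e-07) and 1.39-fold higher in treated DKO MEFs (log2 fold change 0.47, SE 0.037, edgeR adjusted p = 4.60e-09), against the direction of the heavy chains and B2m. The log2 difference between the control lines ran from 0.23 to 0.36 over the alternatives. In Null MEFs the fall with etoposide was slight (log2 fold change -0.11, SE 0.037, edgeR adjusted p = 0.0116), it turned to 0.057 with scaling by library size alone, and it lost its call without the second treated Null library, at -0.083 (edgeR adjusted p = 0.0587). That call was also lost with DESeq2, at -0.065 (DESeq2 adjusted p = 0.0975), and RLE size factors, at -0.065 (edgeR adjusted p = 0.121). A filter at a mean of 1 CPM made the fall -0.025 (edgeR adjusted p = 0.528). The log2 fold change in DKO MEFs was 0.011 (SE 0.037, edgeR adjusted p = 0.798), with a sign that turned in several alternatives, and scaling by library size alone made it a called rise of 0.28 (edgeR adjusted p = 2.26e-06). The interaction of 0.12 (SE 0.052, edgeR adjusted p = 0.0586) missed the threshold. It passed with limma, at 0.12 (limma adjusted p = 0.0385), with library size alone, at 0.23 (edgeR adjusted p = 0.00120), without the third treated Null library, at 0.15 (edgeR adjusted p = 0.0306), and without the third treated DKO library, at 0.13 (edgeR adjusted p = 0.0405).

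Psmb8 and Psmb9 encode catalytic subunits of the immunoproteasome, which replace the standard subunits Psmb5 and Psmb6. Psmb8 (chr17:34197721-34201454, forward strand) stood at 25.4, 26.3 and 25.5 CPM in the control Null libraries, 23.7, 22.1 and 21.2 CPM in the control DKO libraries, 23.2, 23.5 and 29.3 CPM in the Null libraries after etoposide and 20.8, 22.8 and 24.3 CPM in the DKO libraries after etoposide. The ranges of neighbouring groups overlapped, and the third treated Null library was the highest of the 12. No call was made with etoposide in Null MEFs (log2 fold change -0.026, SE 0.080, edgeR adjusted p = 0.778) or in DKO MEFs (log2 fold change 0.025, SE 0.081, edgeR adjusted p = 0.789), and both estimates changed sign in some alternatives. With scaling by library size alone Psmb8 was called higher in DKO MEFs, at 0.30 (edgeR adjusted p = 0.00267). Psmb8 was slightly lower in control DKO MEFs (log2 fold change -0.21, SE 0.081, edgeR adjusted p = 0.0332), a call lost on leaving out any 1 of 5 of the 6 control libraries, with values of -0.17 to -0.22 and edgeR adjusted p from 0.0504 to 0.116. After etoposide the difference of -0.16 (SE 0.081, edgeR adjusted p = 0.0954) missed the threshold, and it passed on leaving out the first treated Null library, at -0.22 (edgeR adjusted p = 0.0307), the second, at -0.21 (edgeR adjusted p = 0.0400), or the third treated DKO library, at -0.23 (edgeR adjusted p = 0.0329). It also passed with DESeq2, at -0.22 (DESeq2 adjusted p = 0.0148), RLE size factors, at -0.22 (edgeR adjusted p = 0.0251), no filter, at -0.17 (edgeR adjusted p = 0.0417), and a filter at a mean of 1 CPM, at -0.22 (edgeR adjusted p = 0.0220). Without the third treated Null library the difference in Psmb8 shrank to -0.035 (edgeR adjusted p = 0.661). The interaction was 0.051 (SE 0.11, edgeR adjusted p = 0.740).

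Psmb9 (chr17:34181987-34187764, reverse strand) had the lowest level per length of the 10 genes in both treated groups and in control Null MEFs. It stood at 7.08, 7.02 and 7.12 CPM in the control Null libraries, 2.81, 3.01 and 2.55 CPM in the control DKO libraries, 12.4, 10.8 and 12.8 CPM in the Null libraries after etoposide and 5.69, 5.98 and 5.21 CPM in the DKO libraries after etoposide, from counts of 152 to 277 in control DKO libraries to 877 to 1018 in treated Null libraries. As with the heavy chains, no groups overlapped and the order was control DKO, treated DKO, control Null and treated Null. Etoposide raised Psmb9 1.69-fold in Null MEFs (log2 fold change 0.76, SE 0.094, edgeR adjusted p = 1.24e-06) and 2.00-fold in DKO MEFs (log2 fold change 1.002, SE 0.10, edgeR adjusted p = 1.86e-07). It was 2.52-fold lower in control DKO MEFs (log2 fold change -1.33, SE 0.10, edgeR adjusted p = 4.68e-09) and 2.13-fold lower in treated DKO MEFs (log2 fold change -1.09, SE 0.095, edgeR adjusted p = 1.88e-08). The interaction of 0.24 (SE 0.14, edgeR adjusted p = 0.158) missed the threshold, which it passed with library size alone, at 0.35 (edgeR adjusted p = 0.0411).

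Psmb9 and Tap1 lie head to head, with RefSeq starts 226 bases apart, and in GENCODE their exons overlap by 212 bases on opposite strands. Reads from the overlap cannot be assigned without strand, and the strand setting of the counting is not given in the sources used here. Of the 75-base windows, 2.40% of those of Tap1 and 3.44% of those of Psmb9 are shared in this way. The neighbours differed in their patterns: the ratio of Tap1 to Psmb9 per kb was 4.33 ± 0.206 (SD, n = 3) in control Null, 10.4 ± 1.15 (SD, n = 3) in control DKO, 14.2 ± 0.975 (SD, n = 3) in treated Null and 12.9 ± 0.737 (SD, n = 3) in treated DKO MEFs. The ratio rose with etoposide in both lines, and the control lines differed mainly through Psmb9.

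Both inducible subunits were far below their standard counterparts per length. Psmb8 over Psmb5 per kb was 0.0493 ± 0.00148 (SD, n = 3) in control Null, 0.0417 ± 0.00141 (SD, n = 3) in control DKO, 0.0614 ± 0.00458 (SD, n = 3) in treated Null and 0.0426 ± 0.00221 (SD, n = 3) in treated DKO MEFs. Treated Null libraries had the highest ratios, and the 2 DKO groups overlapped. In Null MEFs Psmb5 fell with etoposide (log2 fold change -0.35, SE 0.045, edgeR adjusted p = 2.16e-06), while Psmb8 was not called. Psmb9 over Psmb6 was 0.0153 ± 0.000146 (SD, n = 3) in control Null, 0.00700 ± 0.000414 (SD, n = 3) in control DKO, 0.0267 ± 0.00281 (SD, n = 3) in treated Null and 0.0107 ± 0.000993 (SD, n = 3) in treated DKO MEFs, with no overlap between groups. The remaining inducible subunit, Psmb10, was closer to its counterpart Psmb7 per length, at 0.350 ± 0.0170 (SD, n = 3) in control Null and 0.506 ± 0.0133 (SD, n = 3) in control DKO MEFs. In CPM without length, its order against Psmb8 turned in Null but not in DKO MEFs. Control Null MEFs held 25.7 CPM of Psmb8 against 139 of Psmb5, and 28.8 CPM of Psmb10 against 165 of Psmb7. After etoposide Psmb10 over Psmb7 was 0.388 ± 0.0654 (SD, n = 3) in Null and 0.460 ± 0.0216 (SD, n = 3) in DKO MEFs, with overlapping ranges.

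**Figure D4:**
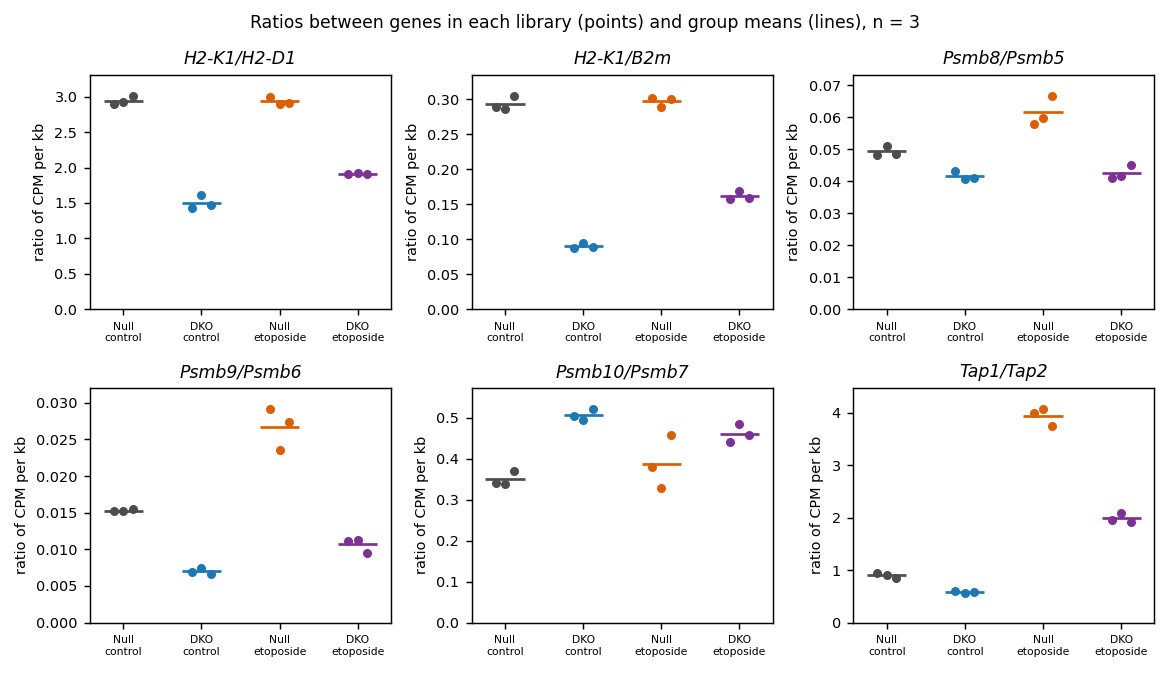
Ratios of CPM per kb of exon between pairs of genes (y axis, from 0) in the 12 libraries (points) by group (x axis), with group means as lines (n = 3). Tap1/Tap2 rises from 0.902 to 3.94 with etoposide in Null MEFs, and H2-K1/H2-D1 is lower in the DKO groups than in the Null groups.

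Erap1 (chr13:74639568-74693201, forward strand) encodes the aminopeptidase that trims peptides in the endoplasmic reticulum. It stood at 52.9, 49.9 and 51.9 CPM in the control Null libraries, 89.7, 85.0 and 89.5 CPM in the control DKO libraries, 53.9, 55.1 and 52.8 CPM in the Null libraries after etoposide and 81.5, 80.5 and 86.1 CPM in the DKO libraries after etoposide. Both DKO groups were above both Null groups, and within each line the treated and control libraries overlapped. Erap1 was 1.71-fold higher in control DKO MEFs (log2 fold change 0.77, SE 0.038, edgeR adjusted p = 1.55e-11) and 1.54-fold higher in treated DKO MEFs (log2 fold change 0.62, SE 0.038, edgeR adjusted p = 2.20e-10). The change with etoposide in Null MEFs was 0.064 (SE 0.038, edgeR adjusted p = 0.138) and missed the threshold. Erap1 passed it with DESeq2, at 0.11 (DESeq2 adjusted p = 0.0150), RLE size factors, at 0.11 (edgeR adjusted p = 0.0145), library size alone, at 0.23 (edgeR adjusted p = 4.72e-05), and a filter at a mean of 1 CPM, at 0.15 (edgeR adjusted p = 0.00163). The slight fall in DKO MEFs (log2 fold change -0.089, SE 0.038, edgeR adjusted p = 0.0418) turned to a called rise of 0.18 (edgeR adjusted p = 3.64e-04) with scaling by library size alone.

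That fall of Erap1 also lost its call with a filter at a mean of 1 CPM, at -0.053 (edgeR adjusted p = 0.187), and on leaving out the third control DKO library, at -0.080 (edgeR adjusted p = 0.114), the first treated DKO library, at -0.10 (edgeR adjusted p = 0.0513), or the second, at -0.085 (edgeR adjusted p = 0.0755). The interaction for Erap1 was -0.15 (SE 0.054, edgeR adjusted p = 0.0237), and it was -0.13 (edgeR adjusted p = 0.0786) without the second control Null library and -0.14 (edgeR adjusted p = 0.0663) without the third control DKO library. With scaling by library size alone it was -0.047 (edgeR adjusted p = 0.485). Exons of Erap1 overlap those of the neighbouring gene Cast on the other strand, and 10.4% of its 75-base windows also occur in Cast transcripts. Windows that occur in other genes made up 18.6% for Tapbp, 9.97% for Psmb8 and 8.27% for Tap2, shared mostly with Gm19412, Gm20496 and Gm15821, which have no row in the table of counts.

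Nlrc5 (chr8:94434356-94527272, forward strand) encodes the coactivator that drives transcription of class I genes. It stood at 18.5, 19.7 and 22.4 CPM in the control Null libraries, 6.15, 5.66 and 5.72 CPM in the control DKO libraries, 106, 102 and 98.1 CPM in the Null libraries after etoposide and 24.02, 24.3 and 21.0 CPM in the DKO libraries after etoposide. Control DKO libraries were lowest, treated Null libraries highest, and treated DKO libraries overlapped control Null libraries. Etoposide raised Nlrc5 5.06-fold in Null MEFs (log2 fold change 2.34, SE 0.068, edgeR adjusted p = 7.20e-15) and 3.95-fold in DKO MEFs (log2 fold change 1.98, SE 0.077, edgeR adjusted p = 4.64e-13). It was 3.46-fold lower in control DKO than in control Null MEFs (log2 fold change -1.79, SE 0.077, edgeR adjusted p = 2.52e-12) and 4.43-fold lower after etoposide (log2 fold change -2.15, SE 0.067, edgeR adjusted p = 4.01e-14), the largest difference between the lines after treatment among the 10 genes. The interaction was -0.36 (SE 0.10, edgeR adjusted p = 0.00668).

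Levels of different genes can be compared per length only. In control Null MEFs, B2m led with 780.2 CPM per kb of exon, followed by H2-K1 with 229, H2-D1 with 77.8 and Tapbp with 68.5 CPM per kb. Tap2, Tap1, Psmb8 and Erap1 were close together, from 9.29 down to 7.08 CPM per kb, and Nlrc5 with 2.38 and Psmb9 with 1.93 CPM per kb were lowest. In control DKO MEFs Tapbp, at 87.5 CPM per kb, stood above H2-K1, at 56.6, and Nlrc5, at 0.688, just below Psmb9, at 0.763 CPM per kb. After etoposide, Tap1 stood at 46.3 CPM per kb in Null and 19.8 CPM per kb in DKO MEFs, above Tap2, Psmb8 and Erap1 in both. Lengths are unions of the annotated exons, so a gene with long rarely used exons is placed too low.

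**Figure D5:**
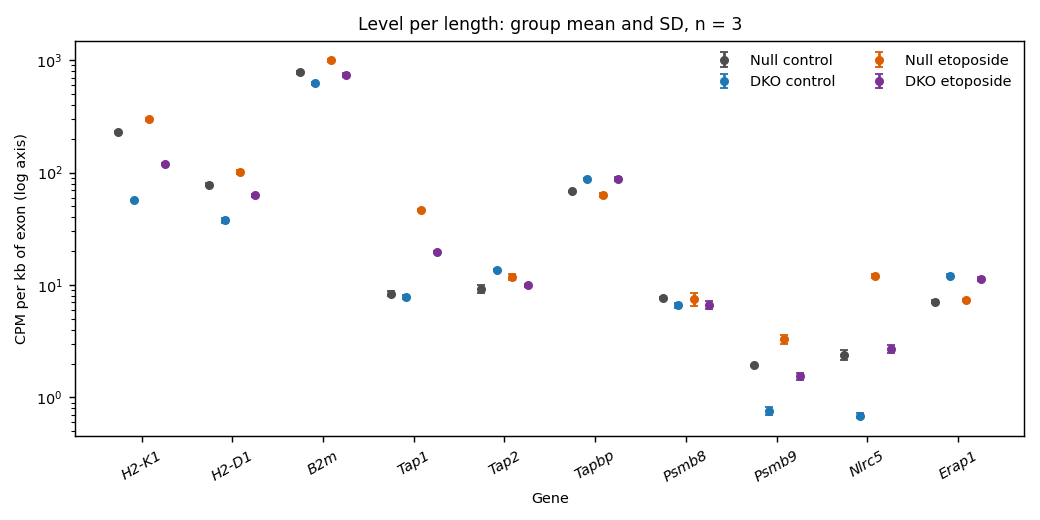
Level per length in CPM per kb of exon (y axis, log scale) of the 10 genes (x axis), as group means with SD (n = 3). B2m is highest in each group, from 626 to 1000.4 CPM per kb, and Psmb9 and Nlrc5 are lowest in the control groups.

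Patterns over the 12 libraries were compared by Pearson correlation of log2 CPM (pseudocount 0.5) with 9344 other genes whose mean reached 10 CPM. Among the closest to H2-K1 were Tubb3 (r = 0.996), Blvrb (r = 0.995) and Itga6 (r = 0.994). For B2m they were Trappc1 (r = 0.993), Ybx1 (r = 0.990) and Paip2 (r = 0.990), for Tap1 Parp10 (r = 0.999), Dennd2c (r = 0.998) and Rrp36 (r = 0.998), and for Nlrc5 Csrnp2 (r = 0.997) and Crip2 (r = 0.995). The libraries share 4 group means, so many genes correlate highly: r was at least 0.95 for 170 genes with H2-K1, 191 with B2m, 352 with Tap1 and 251 with Nlrc5. These values describe likeness only.

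Factors that act on these promoters were measured alongside. Irf1, an interferon-induced activator of class I genes, stood at 51.2 ± 1.48 CPM (SD, n = 3) in control Null, 66.2 ± 2.50 CPM (SD, n = 3) in control DKO, 77.3 ± 1.62 CPM (SD, n = 3) in treated Null and 55.3 ± 1.34 CPM (SD, n = 3) in treated DKO MEFs. It rose with etoposide in Null MEFs (log2 fold change 0.59, SE 0.037, edgeR adjusted p = 1.95e-10) and fell in DKO MEFs (log2 fold change -0.26, SE 0.037, edgeR adjusted p = 1.02e-05), a fall that became 0.014 with scaling by library size alone. Its interaction was -0.85 (SE 0.053, edgeR adjusted p = 8.53e-10), the same sign as the called interactions of Tap1, Tap2, Nlrc5 and Erap1 and opposite to those of H2-K1 and H2-D1. Rfx5, a subunit of the RFX complex on the X box, rose in Null (log2 fold change 0.19, edgeR adjusted p = 0.00614) and DKO MEFs (log2 fold change 0.48, edgeR adjusted p = 1.40e-06), the former without a call when the second control Null library was left out, at 0.14 (edgeR adjusted p = 0.0511). Ifnb1, the fibroblast interferon, had counts of 6 to 16 in control Null, 15 to 23 in control DKO, 30 to 52 in treated Null and 46 to 68 in treated DKO libraries. It rose with etoposide in Null (log2 fold change 1.95, SE 0.47, edgeR adjusted p = 0.00127) and DKO MEFs (log2 fold change 1.70, SE 0.43, edgeR adjusted p = 0.00207). Whether interferon acted on the 10 genes was not tested.

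Other genes of the pathway were taken by name, as lists, and are given by counts past the threshold, the median log2 fold change and the genes with the largest rise and fall. Over all genes tested, etoposide gave 41.7% higher and 36.8% lower in Null MEFs, and 44.0% and 31.3% in DKO MEFs. DKO against Null MEFs gave 33.4% and 34.1% in controls and 36.9% and 35.2% after etoposide, and the interaction 29.9% and 24.7%. No list was tested against these shares. The median of the interaction is left out for 4 lists with genes at or under 3 counts in each library of a group. Beside H2-K1 and H2-D1, 14 of the 22 further class I heavy chain genes in the table were tested. Etoposide gave 6 higher and 2 lower in Null MEFs (median log2 fold change 0.21, H2-Q10 at 1.05, SE 0.30, H2-M3 at -0.93, SE 0.16) and 7 higher and 1 lower in DKO MEFs (median log2 fold change 0.73, or 0.61 with genes at or under 3 counts in each library of a group set to 3, H2-Q10 at 1.44, SE 0.31, H2-T23 at -0.55, SE 0.064). DKO against Null MEFs gave 2 higher and 9 lower in controls (median log2 fold change -1.19, or -0.91 with genes at or under 3 counts in each library of a group set to 3, H2-T23 at 0.60, SE 0.064, H2-Q5 at -2.71, SE 0.38) and 2 higher and 7 lower after etoposide (median log2 fold change -0.53, H2-T23 at 0.71, SE 0.066, H2-T10 at -2.12, SE 0.16). The interaction gave 5 higher and 1 lower (H2-K2 at 0.85, SE 0.14). H2-T23, the mouse counterpart of HLA-E, ran against H2-K1, with 22.7 ± 1.41 CPM (SD, n = 3) in control Null and 34.4 ± 1.25 CPM (SD, n = 3) in control DKO MEFs. Other partners of B2m gave 4 tested of 5. Etoposide gave 0 higher and 1 lower in Null MEFs (median log2 fold change 0.030, Mr1 at -0.46, SE 0.083) and 2 higher and 1 lower in DKO MEFs (median log2 fold change 0.14, Hfe at 0.26, SE 0.098, Mr1 at -0.86, SE 0.078). DKO against Null MEFs gave 3 higher and 1 lower in controls (median log2 fold change 0.33, Mr1 at 1.24, SE 0.080) and 3 higher and 1 lower after etoposide (median log2 fold change 0.51, Mr1 at 0.85, SE 0.082). The interaction gave 1 higher and 1 lower (median log2 fold change 0.051, Fcgrt at 0.23, SE 0.055, Mr1 at -0.39, SE 0.11). Cd1d1, which presents lipids, had counts of 239 to 362 in control Null but 1 to 5 in control DKO libraries, and 331 to 416 against 2 to 4 after etoposide; it is the fall called in both comparisons between the lines.

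The peptide loading complex and the chaperones around Tapbp gave 9 tested genes. Shares of all genes called, given above for each comparison, apply to the counts of these lists as well. Etoposide gave 3 higher and 4 lower in Null MEFs (median log2 fold change -0.041, Pdia3 at 0.27, SE 0.036, Hspa5 at -0.30, SE 0.028) and 2 higher and 5 lower in DKO MEFs (median log2 fold change -0.086, Tapbpl at 0.37, SE 0.067, Pdia3 at -0.30, SE 0.036). DKO against Null MEFs gave 7 higher and 1 lower in controls (median log2 fold change 0.29, Tapbpl at 0.85, SE 0.070, Ganab at -0.57, SE 0.032) and 6 higher and 2 lower after etoposide (median log2 fold change 0.24, Tapbpl at 1.51, SE 0.070, Ganab at -0.61, SE 0.032). The interaction gave 2 higher and 3 lower (median log2 fold change -0.026, Tapbpl at 0.66, SE 0.098, Pdia3 at -0.56, SE 0.051). Calr, the calreticulin of the loading complex, moved little, at -0.11 (SE 0.036) with etoposide in Null and -0.086 (SE 0.036) in DKO MEFs, both turning positive with scaling by library size alone. Further proteasome genes beside Psmb8 and Psmb9, namely the inducible subunit Psmb10, the subunit Psmb11, the PA28 genes and Psme4, which encodes PA200, gave 6 tested of 7. Etoposide gave 0 higher and 3 lower in Null MEFs (median log2 fold change -0.11, Psme4 at -0.49, SE 0.037) and 1 higher and 4 lower in DKO MEFs (median log2 fold change -0.20, Psme3 at 0.22, SE 0.035, Psme4 at -0.70, SE 0.037). Set against Null MEFs, DKO MEFs had 4 higher and 1 lower in controls (median log2 fold change 0.21, Psmb10 at 0.38, SE 0.074, Psme3 at -0.31, SE 0.035) and 2 higher and 1 lower after etoposide (median log2 fold change 0.044, Psmb10 at 0.46, SE 0.075, Psme1 at -0.29, SE 0.043). The interaction gave 1 higher and 4 lower (median log2 fold change -0.20, Psme3 at 0.66, SE 0.049, Psme2 at -0.26, SE 0.067). Psmb10 was at 0.38 (SE 0.074) in controls and 0.46 (SE 0.075) after etoposide in DKO against Null MEFs, the opposite of Psmb9. The 3 standard catalytic subunits, which Psmb8, Psmb9 and Psmb10 replace, were all tested. Etoposide gave 0 higher and 2 lower in Null MEFs (median log2 fold change -0.35, Psmb7 at -0.37, SE 0.040) and 1 higher and 0 lower in DKO MEFs (median log2 fold change -0.010, Psmb6 at 0.41, SE 0.039). Set against Null MEFs, DKO MEFs had 0 higher and 2 lower in controls (median log2 fold change -0.15, Psmb6 at -0.22, SE 0.039) and 3 higher and 0 lower after etoposide (median log2 fold change 0.23, Psmb5 at 0.37, SE 0.045). The interaction gave 3 higher and 0 lower (median log2 fold change 0.35, Psmb6 at 0.45, SE 0.056). Peptidases that act on epitopes beside Erap1 gave 8 tested genes. Etoposide gave 1 higher and 5 lower in Null MEFs (median log2 fold change -0.27, Blmh at 0.12, SE 0.047, Npepps at -0.63, SE 0.040) and 2 higher and 5 lower in DKO MEFs (median log2 fold change -0.22, Thop1 at 0.56, SE 0.043, Npepps at -0.49, SE 0.040). Between the lines, DKO MEFs had 3 higher and 3 lower in controls (median log2 fold change 0.022, Ide at 0.26, SE 0.034, Thop1 at -0.50, SE 0.043) and 5 higher and 2 lower after etoposide (median log2 fold change 0.20, Tpp2 at 0.52, SE 0.036, Lnpep at -0.47, SE 0.047). The interaction gave 4 higher and 2 lower (median log2 fold change 0.067, Thop1 at 0.75, SE 0.061, Lnpep at -0.55, SE 0.066).

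Factors that bind class I promoters gave 18 tested genes. Over all genes, the shares called higher and lower with etoposide were 41.7% and 36.8% in Null and 44.0% and 31.3% in DKO MEFs. Between the lines they were 33.4% and 34.1% in controls and 36.9% and 35.2% after etoposide, and for the interaction 29.9% and 24.7%. Etoposide gave 7 higher and 7 lower in Null MEFs (median log2 fold change 0.0065, Nfyb at 1.70, SE 0.045, Nfkb1 at -2.10, SE 0.040) and 9 higher and 7 lower in DKO MEFs (median log2 fold change 0.092, Irf9 at 0.88, SE 0.043, Nfkb1 at -1.37, SE 0.039). Set against Null MEFs, DKO MEFs had 7 higher and 9 lower in controls (median log2 fold change -0.13, Nfkb1 at -0.66, SE 0.038) and 7 higher and 7 lower after etoposide (median log2 fold change 0.051, Stat2 at 1.65, SE 0.056, Rela at -0.49, SE 0.037). The interaction gave 9 higher and 3 lower (median log2 fold change 0.23, Nfkb1 at 0.73, SE 0.054, Nfyb at -1.003, SE 0.062). Interferons, their receptors and signalling genes gave 11 tested of 13. Etoposide gave 5 higher and 5 lower in Null MEFs (median log2 fold change 0.11, Tyk2 at 0.79, SE 0.055, Jak1 at -1.19, SE 0.041) and 1 higher and 5 lower in DKO MEFs (median log2 fold change -0.015, Jak1 at -0.80, SE 0.041). Set against Null MEFs, DKO MEFs had 7 higher and 1 lower in controls (median log2 fold change 0.29, Tyk2 at 0.999, SE 0.056, Jak1 at -0.11, SE 0.040) and 5 higher and 4 lower after etoposide (median log2 fold change 0.10, Ifngr1 at 1.02, SE 0.036, Socs3 at -0.58, SE 0.044). The interaction gave 4 higher and 5 lower (Ifngr1 at 0.51, SE 0.050, Tyk2 at -1.43, SE 0.078). Class I-like ligands of the activating receptor NKG2D, which do not bind B2m, gave 5 tested of 8. Etoposide gave 3 higher and 0 lower in Null MEFs (median log2 fold change 1.29, Ulbp1 at 1.95, SE 0.20) and 2 higher and 0 lower in DKO MEFs (median log2 fold change 0.80, Ulbp1 at 1.04, SE 0.25). Set against Null MEFs, DKO MEFs had 1 higher and 3 lower in controls (median log2 fold change -1.59, or -0.98 with genes at or under 3 counts in each library of a group set to 3, Ulbp1 at -1.59, SE 0.24) and 0 higher and 3 lower after etoposide (median log2 fold change -2.32, or -2.21 with genes at or under 3 counts in each library of a group set to 3, Ulbp1 at -2.49, SE 0.21). The interaction gave 0 higher and 1 lower (Ulbp1 at -0.90, SE 0.32). Ulbp1 stood at 1.35 ± 0.108 CPM (SD, n = 3) in control Null and 5.19 ± 0.438 CPM (SD, n = 3) in treated Null MEFs. MHC class II genes, normally a trait of professional antigen-presenting cells, gave 7 tested of 12. Etoposide gave 3 higher and 1 lower in Null MEFs (median log2 fold change 0.0022, H2-Eb1 at 5.49, SE 0.31, Cd74 at -0.32, SE 0.12) and 3 higher and 0 lower in DKO MEFs (median log2 fold change 1.30, or 0.060 with genes at or under 3 counts in each library of a group set to 3). Between the lines, DKO MEFs had 0 higher and 4 lower in controls (median log2 fold change -1.35, or -0.83 with genes at or under 3 counts in each library of a group set to 3) and 2 higher and 5 lower after etoposide (median log2 fold change -1.03, H2-DMb2 at 0.59, SE 0.24). The interaction gave 0 higher and 0 lower. H2-Ab1 had counts of 117 to 206 in control Null and 0 to 2 in control DKO libraries, and 159 to 213 against 1 to 4 after etoposide. Cd74 and H2-Eb1 were also called lower in both comparisons between the lines. H2-Eb1 had 3 to 19 counts in control Null and 568 to 614 in treated Null libraries, and 0 to 1 and 12 to 48 in control and treated DKO libraries. Ciita, the class II counterpart of Nlrc5, had 0 to 2 counts in control Null and 0 in control DKO libraries, and 61 to 112 and 13 to 26 after etoposide.

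Markers of cell types also moved with the groups, and their part in the results on the 10 genes was not tested. Beside their counts, all genes were called higher and lower at 41.7% and 36.8% with etoposide in Null and 44.0% and 31.3% in DKO MEFs. The shares between the lines were 33.4% and 34.1% in controls and 36.9% and 35.2% after etoposide, and for the interaction 29.9% and 24.7%. Of 10 fibroblast markers tested of 10, those called higher and lower were 0 and 9 with etoposide in Null, 1 and 9 with etoposide in DKO, 9 and 1 in control DKO against Null, 8 and 2 in treated DKO against Null and 3 and 3 for the interaction. The leaders among them were Fbn1 (-1.85 with etoposide in Null), Pdgfra (-2.09 with etoposide in DKO and 3.24 in control DKO against Null), Col3a1 (2.70 in treated DKO against Null) and Vim (-1.20 for the interaction). Thy1 had counts of 261 to 366 in control Null, 1 to 4 in control DKO, 129 to 194 in treated Null and 2 to 21 in treated DKO libraries. Of 6 leukocyte markers tested of 10, those called higher and lower were 6 and 0 with etoposide in Null, 4 and 0 with etoposide in DKO, 2 and 1 in control DKO against Null, 0 and 2 in treated DKO against Null and 1 and 3 for the interaction. Their sum was 2.00 CPM in control Null, 2.18 CPM in control DKO, 14.4 CPM in treated Null and 4.48 CPM in treated DKO MEFs, and Cd68 accounted for 1.44, 1.56, 11.96 and 3.08 CPM of it. Of 6 epithelial markers tested of 6, those called higher and lower were 3 and 1 with etoposide in Null, 4 and 1 with etoposide in DKO, 1 and 2 in control DKO against Null, 0 and 4 in treated DKO against Null and 1 and 1 for the interaction. Their sum was 2.60 CPM in control Null, 5.36 CPM in control DKO, 3.76 CPM in treated Null and 2.25 CPM in treated DKO MEFs, with Krt8 at 1.49, 4.58, 0.869 and 0.513 CPM. Of 4 endothelial markers tested of 5, those called higher and lower were 4 and 0 with etoposide in Null, 4 and 0 with etoposide in DKO, 0 and 0 in control DKO against Null, 0 and 1 in treated DKO against Null and 0 and 1 for the interaction. Their sum was 0.130 CPM in control Null, 0.133 CPM in control DKO, 2.63 CPM in treated Null and 1.12 CPM in treated DKO MEFs.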

How the data were processed

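The authors deposited 1 table of counts per gene for the 12 libraries, whole numbers without normalization. RNA was depleted of ribosomal RNA, sequenced as stranded paired-end libraries, trimmed with Cutadapt where needed and aligned with HISAT2. The methods name HTSeq for counting on the GENCODE annotation, while the submitters' processing notes name HISAT2, featureCounts and mm10. The 5 summary lines of the table are those that HTSeq writes, and no fit used them. Genes held 53.4 to 63.1% of the total of a library. The line for pairs outside features held 20.2 to 27.3%, that for pairs aligned more than once 15.9 to 20.5%, and that for pairs on several genes 0.428 to 0.513%. Versions and the strand setting are not given in the sources used here. The labels call the controls untreated, and the methods for RNA-Seq give DMSO for 8 hr.

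Counts were fitted in R 4.3.3 with edgeR 4.0.16 (filterByExpr on the 4 groups, TMM, glmQLFit over all 12 libraries with a group factor, glmQLFTest). Benjamini-Hochberg adjustment covered the 15220 genes tested, and calls were made under 0.05. The SE is the absolute log2 fold change over the square root of F. DESeq2 1.42.0, limma 3.58.1 with its trend and other scalings and filters were alternatives. The fit was tested on simulated data. Tables and plots were made in Python 3.11.15 with pandas 2.3.3, numpy 2.4.6 and matplotlib 3.10.9. Positions and exon lengths come from GENCODE vM21 on GRCm38, the build that mm10 names. The 75-base windows of transcripts were searched on both strands. Spread within groups exceeded sampling noise, with a chi-square per degree of freedom of 11.1 to 23.0.

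Named genes were the 10 genes, the largest called rise and fall of each list per comparison where the mean reached 1 CPM, a fixed set (Tfeb, Tfe3, Irf1, Rfx5, Psmb10, Psmb5, Psmb6, Psmb7, Calr, H2-T23, Ifnb1, Ciita) and the 3 genes most correlated with H2-K1, B2m, Tap1 and Nlrc5. Some results under this rule are not reported here. The genes and the lists were chosen with earlier results of these data known.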

Additional observations from a re-analysis of the deposited data

Results flagged for a closer look

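The response to etoposide differed between DKO and Null MEFs, by the interaction term of the edgeR fit, for 6 of the 10 class I presentation genes, against 29.9% of all genes tested called more positive and 24.7% more negative in DKO MEFs. That balance over all genes turned with the setting, to 25.9% and 28.7% by DESeq2, 25.4% and 27.8% by RLE, and 31.7% and 32.2% by the filter at 1 CPM. As log2 differences between the response in DKO MEFs and that in Null MEFs, the values were H2-K1 0.71 and H2-D1 0.35, the heavy chains, and Tap1 -1.14, Tap2 -0.79, Nlrc5 -0.36 and Erap1 -0.15. The call of Erap1 was lost without the second control Null library, at -0.13 (edgeR adjusted p = 0.0786), without the third control DKO library, at -0.14 (edgeR adjusted p = 0.0663), and with scaling by library size alone, at -0.047 (edgeR adjusted p = 0.485).

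The same term was past the threshold for Tfeb, Tfe3 and other named genes of the lists. More positive in DKO MEFs were Tfeb 0.49, Tfe3 0.28, Rfx5 0.29, Psmb5 0.34, Psmb6 0.45, Psmb7 0.35, Nfkb1 0.73, Tapbpl 0.66, Psme3 0.66, Thop1 0.75, Thy1 2.78, Ifngr1 0.51, H2-K2 0.85 and Fcgrt 0.23. More negative in DKO MEFs were Irf1 -0.85, Mr1 -0.39, Pdia3 -0.56, Nfyb -1.003, Tyk2 -1.43, Ulbp1 -0.90, Cd68 -2.05, Krt8 -2.40, Lnpep -0.55, Psme2 -0.26 and Vim -1.20. Smaller differences than the largest of their list were more positive for H2-M3 0.73, Hspa5 0.43, Npepps 0.14, Jak1 0.39, Fbn1 0.51, Irf9 0.22, Tpp2 0.27 and Stat2 0.57 and more negative for Psme4 -0.21, Pdgfra -1.03, Psme1 -0.20, Rela -0.28 and Socs3 -0.90. Thy1 and Ulbp1 have few counts in the DKO libraries, and their values lost the call when 1 library was left out, as did that of Tfeb.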

How the results depend on the processing

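Of 750 values of the 10 genes under alternatives, 678 kept direction and side of the threshold, 16 lost a call, 30 gained one and 26 changed sign. The single gene lower with etoposide in Null MEFs, Tapbp, was 0 genes by DESeq2, RLE size factors, library size alone and a filter at a mean of 1 CPM. Over all genes, those settings called 34.6%, 34.5%, 28.6% and 40.2% lower, in that order. In DKO MEFs the count lower was 1 by library size alone (19.5% of all genes) and by that filter (36.2%). Library size alone gave 9 higher there, with Tapbp (0.28), Psmb8 (0.30) and Erap1 added, against 61.4% of all genes. The count with a more positive interaction was 4 by library size alone, against 38.0% of all genes. Leaving out 1 library gave 7 higher and 0 to 1 lower with etoposide in Null MEFs, 6 and 1 to 2 in DKO MEFs, 3 and 5 to 7 in control and 2 and 7 to 8 in treated DKO against Null MEFs, and 2 to 3 and 3 to 5 for the interaction. Over all genes these fits called 39.7 to 40.2% higher and 35.0 to 35.6% lower with etoposide in Null MEFs. In DKO MEFs the shares were 39.4 to 41.7% and 29.3 to 30.8%. Between the lines they were 30.7 to 31.1% and 31.1 to 31.9% in controls, and 33.3 to 34.9% and 33.0 to 34.1% after etoposide. For the interaction they were 26.3 to 28.4% and 22.7 to 24.4%. Library size alone moved the median of all genes by 0.17 and 0.27 (etoposide in Null and DKO MEFs), -0.12 (control lines) and 0.10 (interaction), and the share of calls that were higher from 53.1 to 63.8%, 58.5 to 75.9%, 49.5 to 38.2% and 54.8 to 65.0% in the same order. Other settings moved the interaction the other way, with 47.4% of calls higher by DESeq2, 47.7% by RLE and 49.6% by the filter at 1 CPM, and treated DKO against Null MEFs fell from 51.2% to 46.2% by DESeq2 and 46.0% by RLE. Most signs that turned were of values near 0, but those of Irf1 (-0.26) and Erap1 (-0.089) in DKO MEFs were called, as were those of Calr and of Tapbp in Null MEFs, and the cause was not tested. With etoposide in Null MEFs, Psmb8 became 0.020 (DESeq2), 0.020 (RLE), 0.14 (library size alone) and 0.060 (mean of at least 1 CPM), and 0.028 and 0.021 with 1 library left out (lowest -0.15). In DKO MEFs Psmb8 became -0.015 (no filter) and -0.0052 (6 libraries), and -0.015, -0.012 and -0.044 with 1 library left out (highest 0.062), and Tapbp -0.0068 (DESeq2), -0.0067 (RLE), -0.029 (no filter) and -0.019 (6 libraries), and -0.0072, -0.021, -0.0014 and -0.036 with 1 library left out (highest 0.022). The interaction of Psmb8 became -0.014 (DESeq2) and -0.013 (RLE), and -0.012, -0.0055 and -0.015 with 1 library left out. By library size alone, Tapbp in Null MEFs was 0.057, Erap1 in DKO MEFs 0.18, Irf1 in DKO MEFs 0.014, and Calr 0.061 in Null MEFs, 0.19 in DKO MEFs and -0.0086 between the control lines. Among other named genes, at least 1 alternative ended a call of Blmh, Calr, Cd74, H2-DMb2, Hfe, Jak1, Pdia3, Psmb10, Psme2, Rfx5, Tfeb, Thy1 or Ulbp1. With the replicate number as a block, the counts higher and lower were 7 and 1, 6 and 2, 3 and 6, 2 and 7, and 2 and 4, equal to those without it. Over all genes, the shares with the block were 41.4% and 36.6%, 43.6% and 31.2%, 33.2% and 33.8%, 36.8% and 34.8%, and 29.4% and 24.5%. Libraries with the same number did not deviate together (r from -0.20 to 0.19, and 3 of 12 libraries correlated best with their own number), so the numbers name the libraries and pair nothing.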
